A study of Homo sapiens with 8 samples.

Results

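The genes that copy DNA, and the E2F and cyclin E genes that drive their transcription, were followed in cisplatin-resistant and parental head and neck squamous carcinoma cells. The set was a list of 49 named genes. Of these, 48 were measured, and all 48 passed the expression filter among 15221 genes tested in the series. E2F2 matched no transcript used here and was not analysed here. RNA was sequenced from polyA libraries in 4 groups with 2 libraries each, 8 in all. These were an HPV- resistant clone (SCC411) of the line UPCISCC89, HPV- parental UPCISCC89 cells (SCC89), an HPV+ resistant clone (SCC35) of the line UDSCC2, and HPV+ parental UDSCC2 cells (SCC2). Cisplatin, a platinum compound that crosslinks DNA, had been given to the resistant cells over months at rising doses. Each resistant group was a single clone that had been grown on without the drug, so a change may belong to the clone. HPV status, line and dose cannot be told apart, since each status was a single line and the HPV+ line had received a higher dose. Whether the paired libraries of each group were grown as separate cultures is not stated in the sources used here, and the p-values can therefore reflect technical spread alone.

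E2F transcription factors switch on the replication genes late in G1, once cyclin-dependent kinases have phosphorylated the RB protein that holds E2F back. Origins are licensed by ORC, CDC6 and CDT1, which load the MCM2-7 ring. The ring becomes an active helicase when CDC45 and the GINS complex join it. Polymerases, the PCNA clamp and its RFC loader copy both strands, while RPA coats the exposed single strands. In HPV+ tumors the viral E7 protein binds RB, which frees E2F by another route.

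The promoters were examined because the list was named for E2F as a regulator of its members. RefSeq promoter sequences (GRCh38.p14, 250 bases before to 50 bases after a start site) matched 40 of the 48 measured members by symbol. The E2F core was searched as TTTCCCGC, TTTCGCGC, TTTGGCGC and TTTGCCGC, and the NF-Y core as CCAAT, all on both strands. Of the 40 promoters, 20 held at least 1 E2F spelling, which is 50%, against 3.31% of 35116 promoters in the table. CCAAT was in 22 of the 40, or 55%, against 34.6% of all promoters. The list was drawn up as E2F-driven, so the E2F share describes how the genes were chosen. A match is a description and not a shown binding site. The windows below show 60 bases around an E2F spelling, 5′ to 3′ on the strand of the gene, with every E2F spelling in capitals. They are shown for the called members E2F1 and POLA1 and, as examples of other roles, for the licensing factor CDT1 and for members of the helicase and the clamp (MCM6, MCM3, PCNA). Counted in bases before the start site, the windows cover 60 to 1 in E2F1, 163 to 104 in POLA1, 61 to 2 in CDT1, 112 to 53 in MCM6, 200 to 141 in MCM3 and 85 to 26 in PCNA. In MCM6 a pair of spellings overlapped and in E2F1 a pair lay within the same window.
E2F1 (chr20:33686386-33686445, minus strand): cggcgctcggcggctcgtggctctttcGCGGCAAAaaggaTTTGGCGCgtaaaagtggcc
POLA1 (chrX:24693755-24693814, plus strand): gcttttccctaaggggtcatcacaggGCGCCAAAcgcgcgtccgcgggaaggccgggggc
CDT1 (chr16:88803728-88803787, plus strand): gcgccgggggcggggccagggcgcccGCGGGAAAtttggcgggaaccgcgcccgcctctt
MCM6 (chr2:135876496-135876555, minus strand): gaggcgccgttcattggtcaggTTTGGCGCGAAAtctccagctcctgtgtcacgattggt
MCM3 (chr6:52284883-52284942, minus strand): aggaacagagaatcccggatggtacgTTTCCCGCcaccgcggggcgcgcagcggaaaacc
PCNA (chr20:5126648-5126707, minus strand): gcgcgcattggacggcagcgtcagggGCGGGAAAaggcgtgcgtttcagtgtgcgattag
Of the other members called in the HPV- clone, CDC45 (4 matches) and MCM10 (2 matches) held CCAAT but none of the E2F spellings over the full promoter window, and CCNE1 held neither. DSCC1 and CCNE2 had no matching entry and were not examined.

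The libraries held 20250246 to 27341284 read pairs each. Squamous markers were present in every group. Their summed level (KRT5, KRT14, KRT17, TP63, EPCAM and SFN) was 3669 and 4566 CPM (counts per 1000000 counts of the library) in the HPV- clone and 15900 and 14720 CPM in HPV- parental cells. It was 3990 and 3180 CPM in the HPV+ clone and 2652 and 2703 CPM in HPV+ parental cells. In the HPV+ line, 6 fibroblast genes summed to 3398 and 1541 CPM in the clone and 3084 and 3440 CPM in parental cells, most of it COL3A1, and to at most 12.4 CPM in any HPV- library. Among the others, LUM had 96.0 and 69.9 CPM in the HPV+ clone and 243 and 294 CPM in HPV+ parental cells, while COL1A2 was at most 1.34 CPM in the HPV+ line and PDGFRA at most 0.115 CPM in any library. CDKN2A, whose product p16 is a marker of HPV-driven tumors, had 422 and 320.5 CPM in HPV+ parental cells and 114 and 52.0 CPM in HPV- parental cells. Levels were lower in the clones, at 184.6 and 215.3 CPM in the HPV+ clone and 36.8 and 36.6 CPM in the HPV- clone. The log2 fold changes of CDKN2A were -0.96 and -1.31 in the HPV+ and HPV- clones. Only the HPV- change passed an adjusted p under 0.05 in edgeR's test. The part of these markers in the results was not tested.

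In the HPV- clone the replication genes were lower as a group, and in the HPV+ clone they were mostly near the parental level. In bulk RNA, fewer cells in S phase and less RNA per cell cannot be told apart. A gene was called changed at an adjusted p under 0.05 with a log2 fold change beyond 1 in edgeR's quasi-likelihood test. In the HPV- clone 7 of 48 members fell, or 14.6%, against 5.22% of all genes tested. They were MCM10, CDC45, DSCC1, POLA1, E2F1, CCNE1 and CCNE2. No member rose by the same test, against 6.06% of all genes. By unadjusted p under 0.05, 30 members were lower and 0 higher. No share of all genes is given at the unadjusted p, here or for the comparisons and lists below. DESeq2 called 7 members lower and 0 higher, against 798 lower and 875 higher among all genes tested. With the adjusted p alone and no minimum fold, 26 members were lower, or 54.2%, against 14.1% of all genes, and 0 were higher, against 12.8%. The count of 7 was 3 without HPV- resistant replicate 1 (CDC45, DSCC1 and CCNE2), 12 without HPV- resistant replicate 2, and 4 with upper-quartile scaling.

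The spread of single values showed the same side. Both HPV- resistant libraries lay below both parental libraries in 34 of 48 members, or 70.8%, against 28.5% of all genes, and above them in 0 members, against 32.7%. The median log2 fold change of the members was -0.54, while that of all genes tested was 0.04. Of the 48 values, 45 were negative, or 93.8%, against 46.2% of all genes. The exceptions were MCM3, RFC1 and WDHD1, and 41 values were negative when transcript length was an offset. Summed over the 48 members, the level was 5559 and 6663 normalised CPM (scaled by TMM library sizes) in the HPV- clone and 8727 and 8679 CPM in HPV- parental cells. The first library of the clone lay below the second, and in the members' levels the ratio between these libraries had a median of 1.19. Mitochondrial reads took 4.996% and 3.24% of the counts in the 2 libraries of the clone and 1.71% and 1.99% in parental cells, and their part in the result was not tested.

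In the HPV+ clone 0 of 48 members fell and 0 rose, against 4.6% and 3.4% of all genes. By unadjusted p under 0.05, 10 members were lower and 3 higher in edgeR. DESeq2 called 0 members in each direction, against 659 lower and 537 higher among all genes tested. With the adjusted p alone, 6 members were lower (TYMS, TK1, RPA2, RPA3, CCNE1 and CCNE2), or 12.5%, against 10.5% of all genes, and 1 was higher (CHAF1B), against 7.65%. Without HPV+ resistant replicate 1 there was 1 call with the minimum fold, RPA3. Both clone libraries were below both parental libraries in 27 members, or 56.2%, against 34.3% of all genes, and above in 12 members, or 25%, against 33.5%. The median log2 fold change was -0.12, against 0.00 over all genes tested. Of the 48 values, 32 were negative, or 66.7%, against 48.4% of all genes. The summed level was 6342 and 6160 CPM in the HPV+ clone and 7071 and 7244 CPM in HPV+ parental cells.

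**Figure D1:**
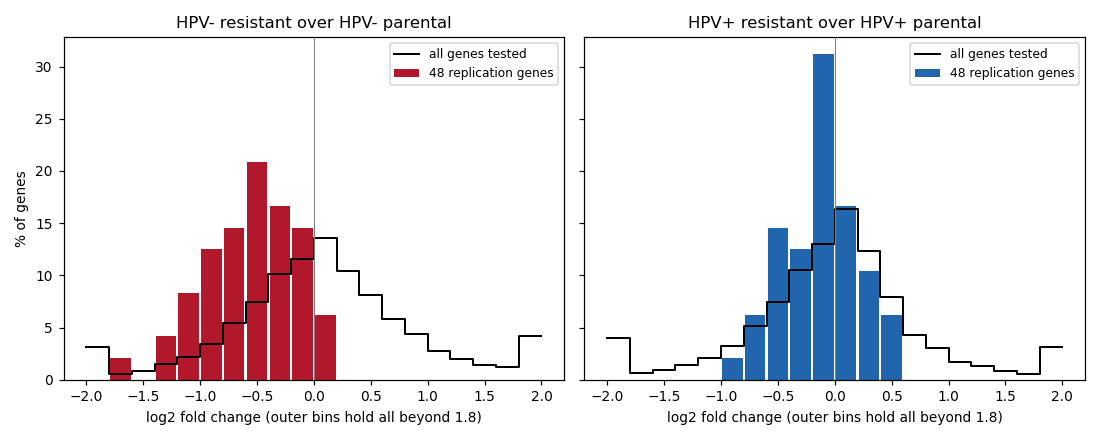
Share of genes (%) by log2 fold change in bins of 0.2, resistant over parental, for the 48 replication genes (bars) and all 15221 genes tested (black line), with the HPV- line on the left and the HPV+ line on the right. The bars of the HPV- line sit to the left of 0 around a median of -0.54, and those of the HPV+ line around -0.12.

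The difference between the lines was tested for each gene as the change in the HPV+ line minus the change in the HPV- line. Of the 48 members 6 were called with a positive difference (MCM10, CDC45, DSCC1, POLA1, CHAF1B and CLSPN), or 12.5%, against 5.17% of all genes. The count in the negative direction was 0, against 6.57% of all genes, with 0 members at an unadjusted p under 0.05 and 0 by DESeq2. With the adjusted p alone there were 9 positive, or 18.8%, against 8.16% of all genes, and 0 negative, against 8.57%. The value was positive in 40 of 48 members, or 83.3%, against 48.2% of all genes. Of the 6 genes, 4 had also fallen in the HPV- clone, and CHAF1B and CLSPN were called only in the difference. Both tests use the same HPV- libraries, and a fall in the HPV- clone by itself makes the difference more positive. The overlap is therefore not a separate result.

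**Figure D2:**
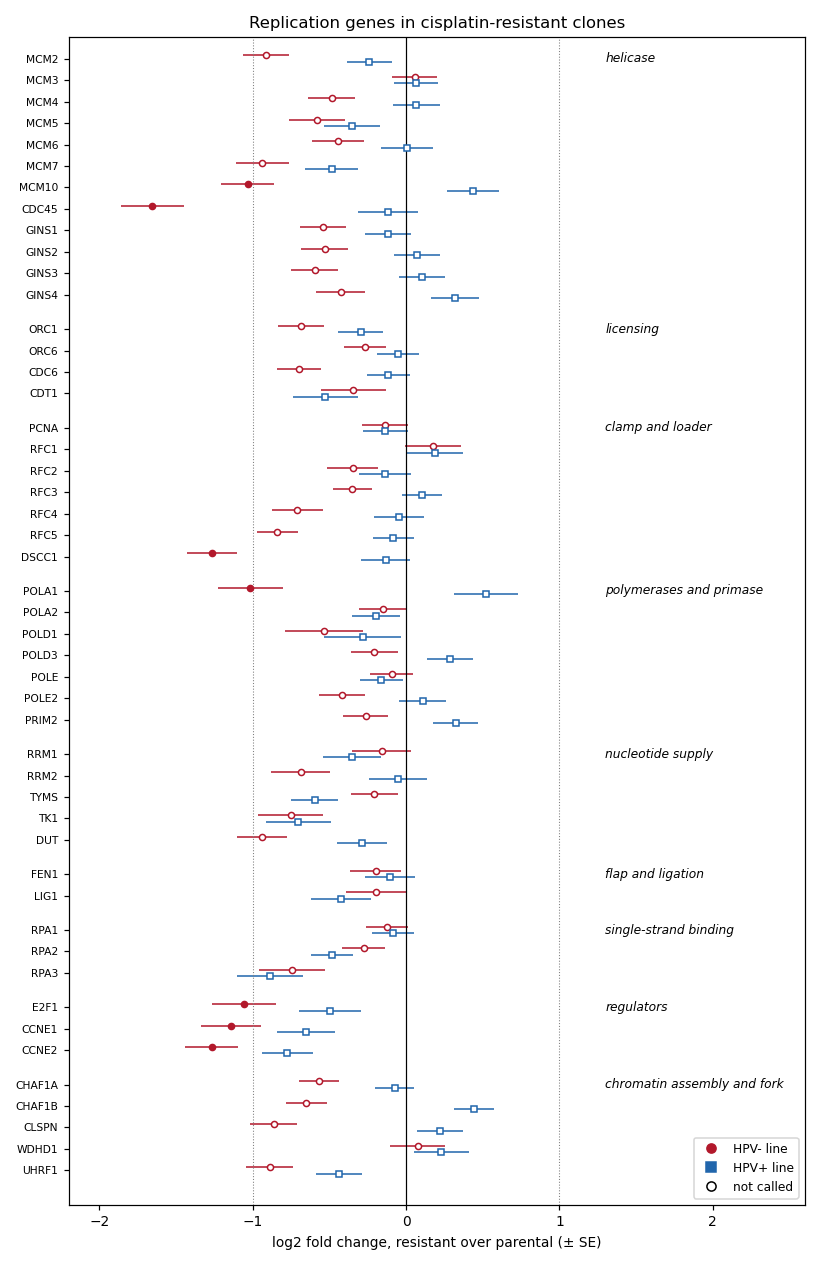
Log2 fold change, resistant over parental, with its standard error (horizontal axis) for each of the 48 measured members (rows, grouped by role) in the HPV- line (red circles) and the HPV+ line (blue squares). Filled symbols mark called genes, and the 7 filled symbols are all on the HPV- side between -1.02 and -1.65.

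Among the regulators all 3 measured members fell in the HPV- clone, against 5.22% of all genes. E2F1, the activator that gives the set its name, had 47.0 and 62.3 CPM in the HPV- clone and 135 and 92.6 CPM in HPV- parental cells. The groups did not overlap, and the log2 fold change was -1.06 (SE 0.21, adjusted p = 0.0048). It was not called without HPV- resistant replicate 1 (-0.87) or HPV- parental replicate 1 (-0.77). Its HPV+ levels were 78.2 and 89.7 CPM in the clone and 126 and 111 CPM in parental cells, with a log2 fold change of -0.50 (SE 0.20, adjusted p = 0.12). Both clone libraries were again below both parental ones.

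The cyclins E1 and E2, which activate CDK2 at the entry to S phase, had the lowest CPM in HPV- parental cells among the members called in the HPV- clone. CCNE1 had 7.76 and 10.1 CPM in the HPV- clone and 21.9 and 17.5 CPM in HPV- parental cells, a log2 fold change of -1.14 (SE 0.20, adjusted p = 0.0026), which was under the minimum fold without HPV- resistant replicate 1 (-0.97) or HPV- parental replicate 1 (-0.98). CCNE1 in the HPV+ line had 15.1 and 14.6 CPM in the clone and 23.5 and 23.1 CPM in parental cells, and its log2 fold change of -0.65 passed the adjusted p (0.039) but not the minimum fold. CCNE2 had 13.8 and 12.8 CPM in the HPV- clone and 30.7 and 33.4 CPM in HPV- parental cells, a log2 fold change of -1.27 (SE 0.17, adjusted p = 0.00076). The fitted level was 41.5% of the parental one. CCNE2 in the HPV+ line had 34.2 and 26.2 CPM in the clone and 49.6 and 53.7 CPM in parental cells (log2 fold change -0.77, adjusted p = 0.011). Taking the HPV+ minus the HPV- change, these 3 regulators gave 0.49 to 0.56 on the log2 scale and none was called, so a difference was not shown.

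**Figure D3:**
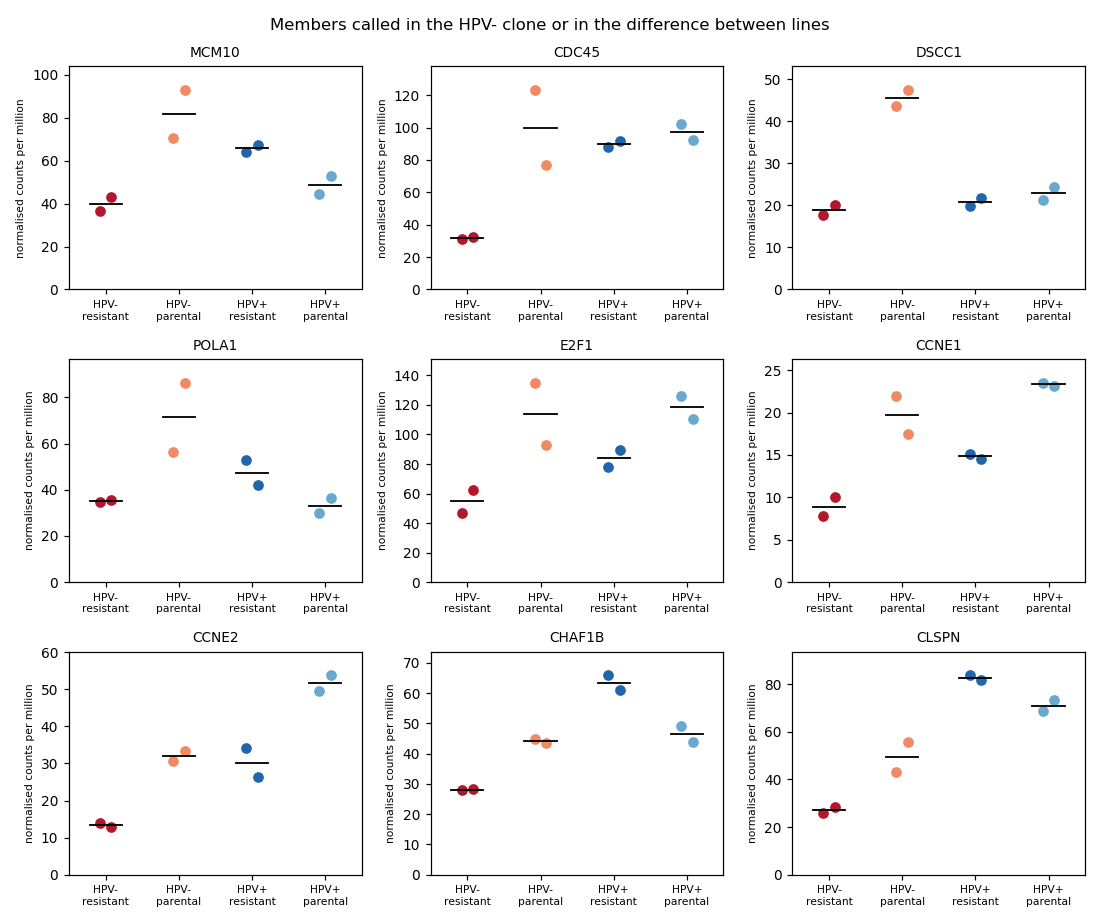
Normalised CPM (vertical axis, from 0) of the 9 members called in the HPV- clone or in the difference between the lines, with a dot for each library and a line for the group mean (n = 2). In all 9 genes both HPV- clone libraries lie below both HPV- parental libraries, while MCM10, POLA1, CHAF1B and CLSPN are higher in the HPV+ clone than in HPV+ parental cells.

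In the helicase group 2 of 12 members fell in the HPV- clone, or 16.7%, against 5.22% of all genes, and 9 were lower by the adjusted p alone, or 75%, against 14.1%. CDC45, which joins the MCM ring to make the active helicase, had the most negative log2 fold change of the 48 members. It had 30.9 and 32.6 CPM in the HPV- clone and 123 and 77.0 CPM in HPV- parental cells. The log2 fold change was -1.65 (SE 0.20, adjusted p = 0.00051), or 31.8% of the parental level, with no overlap even though the parental libraries lay far apart. The HPV+ levels of CDC45 were 87.9 and 91.5 CPM in the clone and 102 and 92.2 CPM in parental cells, and the difference between the lines was 1.54 (SE 0.28, adjusted p = 0.0051).

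MCM10, which helps the loaded helicase start, had values of opposite sign in the 2 clones. It had 36.7 and 43.2 CPM in the HPV- clone and 70.8 and 92.8 CPM in HPV- parental cells, a log2 fold change of -1.03 (SE 0.17, adjusted p = 0.0021). Without HPV- resistant replicate 1 it was -0.92 and without HPV- parental replicate 2 it was -0.90, and with transcript length as an offset it was -0.94, all under the minimum fold. Its HPV+ levels were 64.1 and 67.3 CPM in the clone and 44.4 and 52.7 CPM in parental cells, a log2 fold change of 0.44 (SE 0.17, adjusted p = 0.098) that was not called. The groups did not overlap in either line, and the difference of 1.47 (SE 0.24, adjusted p = 0.0029) was called.

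Within the MCM2-7 ring, MCM7 and MCM2 came closest to the threshold in the HPV- clone. MCM7 had 533 and 680 CPM in the HPV- clone and 1282 and 1042 CPM in HPV- parental cells (log2 fold change -0.94, adjusted p = 0.0036), and MCM2 had a log2 fold change of -0.91 (adjusted p = 0.0021). MCM7 in the HPV+ line had 404 and 445 CPM in the clone and 610 and 580 CPM in parental cells (log2 fold change -0.49, adjusted p = 0.075). MCM4 and MCM5 had log2 fold changes of -0.49 and -0.58 in the HPV- clone with adjusted p of 0.04 and 0.041, and MCM6 had -0.44 with an adjusted p of 0.077. MCM3 stood apart with 254 and 306 CPM in the HPV- clone and 282 and 257 CPM in HPV- parental cells, where the groups overlapped.

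The ring holds 1 copy of each subunit, so the RNA levels were set side by side per length, in TPM (transcripts per 1000000, as deposited). MCM7 had the highest and MCM6 the lowest TPM of the 6 subunits in all 8 libraries. The highest level was 4.96 and 5.40 times the lowest in the HPV- clone and 9.28 and 5.79 times in HPV- parental cells. It was 3.17 and 4.09 times the lowest in the HPV+ clone and 5.58 and 4.73 times in HPV+ parental cells.

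**Figure D4:**
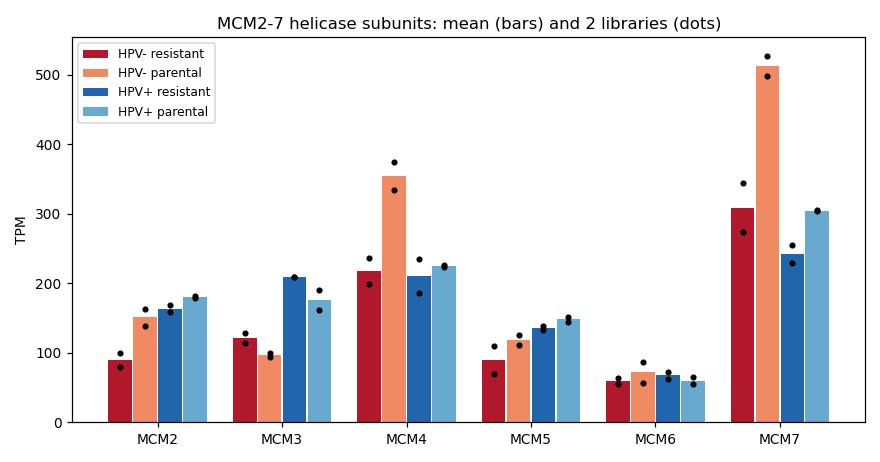
TPM (vertical axis, from 0) of the 6 MCM2-7 subunits in the 4 groups, with bars for group means and dots for the 2 libraries. MCM7 averaged 308 TPM in the HPV- clone and 513 TPM in HPV- parental cells, while MCM6 lay between 54.4 and 86.2 TPM in all libraries.

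The 4 GINS genes encode the complex that bridges the ring and CDC45. Their log2 fold changes were -0.43 to -0.60 in the HPV- clone, where GINS1, GINS2 and GINS3 passed the adjusted p alone, and -0.12 to 0.32 in the HPV+ clone. The change in HPV+ minus that in HPV- was 0.70 for GINS3 (adjusted p = 0.048) and 0.74 for GINS4 (adjusted p = 0.045), below the minimum fold in both.

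Of the 4 licensing genes 0 were called in either clone, with 2 lower and 0 higher at an unadjusted p under 0.05 in the HPV- clone, 1 lower and 0 higher in the HPV+ clone, and 0 by DESeq2 in both. ORC1 and CDC6, which recognise origins and help load the ring, passed the adjusted p alone in the HPV- clone. CDC6 had 83.6 and 98.7 CPM in the HPV- clone and 140 and 156 CPM in HPV- parental cells (log2 fold change -0.70, SE 0.14, adjusted p = 0.0059). The HPV+ levels of CDC6 were 80.3 and 83.7 CPM in the clone and 85.5 and 92.2 CPM in parental cells. CDT1, the loader that is destroyed once S phase starts, had 55.4 and 94.4 CPM in the HPV- clone and 89.9 and 100 CPM in HPV- parental cells, with overlap. CDT1 in the HPV+ line had 114 CPM in both clone libraries and 159 and 170 CPM in parental cells (log2 fold change -0.53, adjusted p = 0.11).

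ORC6, the smallest ORC subunit, needs its transcripts read apart. At the gene level it had 499.9 and 483 CPM in the HPV- clone and 623 and 560 CPM in HPV- parental cells (log2 fold change -0.27, adjusted p = 0.17). Most of this was a transcript annotated as a retained intron (ENST00000569239), which took 90.6 to 92.5% of the ORC6 TPM in the HPV- clone and 81.3 to 86.4% in HPV- parental cells. The protein-coding transcript ENST00000219097 had 18.6 and 22.6 TPM in the HPV- clone and 50.3 and 42.7 TPM in HPV- parental cells. The 2 groups did not overlap in this transcript, which was picked out after its values were seen and has no test. The same transcript in the HPV+ line had 27.02 and 20.1 TPM in the clone and 27.2 and 36.6 TPM in parental cells. Salmon divides shared reads between transcripts by a model, so such values are less certain than gene sums.

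In the clamp and loader group 1 of 7 members fell in the HPV- clone, or 14.3%, against 5.22% of all genes. DSCC1, part of the alternative loader that aids sister chromatid cohesion, had 17.8 and 20.04 CPM in the HPV- clone and 43.5 and 47.4 CPM in HPV- parental cells. Its log2 fold change was -1.27 (SE 0.16, adjusted p = 0.00059), and the groups stood far apart. DSCC1 in the HPV+ line had 19.8 and 21.8 CPM in the clone and 21.3 and 24.4 CPM in parental cells, which overlapped, and the difference between the lines was 1.13 (SE 0.23, adjusted p = 0.0077). RFC5 and RFC4, small loader subunits, passed the adjusted p alone in the HPV- clone with log2 fold changes of -0.84 and -0.71. RFC5 had a difference between the lines of 0.76 (adjusted p = 0.02).

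PCNA, the sliding clamp, had the highest mean TPM of the 48 members in all 4 groups. Its TPM averaged 570 ± 37.4 in the HPV- clone and 554 ± 108 in HPV- parental cells (SD, n = 2). It averaged 376 ± 19.2 TPM in the HPV+ clone and 378 ± 57.8 TPM in HPV+ parental cells. The clone and parental values differed by less than the spread between libraries in both lines, with log2 fold changes of -0.14 (SE 0.15) and -0.13 (SE 0.15) in the fit of counts. RFC1, the large loader subunit, had 189 and 177 CPM in the HPV- clone and 130 and 194 CPM in HPV- parental cells, with overlap. RFC1 in the HPV+ line had 176 and 169 CPM in the clone and 143 and 160 CPM in parental cells (log2 fold change 0.19, adjusted p = 0.51).

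Among the polymerases 1 of 7 members fell in the HPV- clone, or 14.3%, against 5.22% of all genes. POLA1, the catalytic subunit of the polymerase that lays down the first DNA of each fragment, had 34.9 and 35.6 CPM in the HPV- clone and 56.4 and 86.3 CPM in HPV- parental cells. The log2 fold change was -1.02 (SE 0.21, adjusted p = 0.0066). Without HPV- parental replicate 2 it was -0.75, and without HPV- resistant replicate 1 the adjusted p was 0.0515, so the call was lost in both. The HPV+ levels of POLA1 were 53.0 and 41.9 CPM in the clone and 29.8 and 36.3 CPM in parental cells, a log2 fold change of 0.52 (SE 0.21, adjusted p = 0.11). The groups did not overlap in either line, and the difference between the lines was 1.54 (SE 0.30, adjusted p = 0.0066).

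The POLA1 reads in the HPV- line came from more than 1 transcript. ENST00000379068 had 596 and 442 estimated read pairs in the HPV- clone and 225 and 1046 in HPV- parental cells, so the groups overlapped. ENST00000379059, which is also protein coding, had 67.3 and 198 read pairs in the HPV- clone and 693 and 645 in HPV- parental cells, with no overlap. In the HPV+ line ENST00000379059 was listed at 0 in all 4 libraries. The TPM of ENST00000379068 in the HPV- clone was 0.956 times that in parental cells, as a ratio of means. The lower gene sum lay mainly in the other transcripts, which were picked out after their values were seen.

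**Figure D5:**
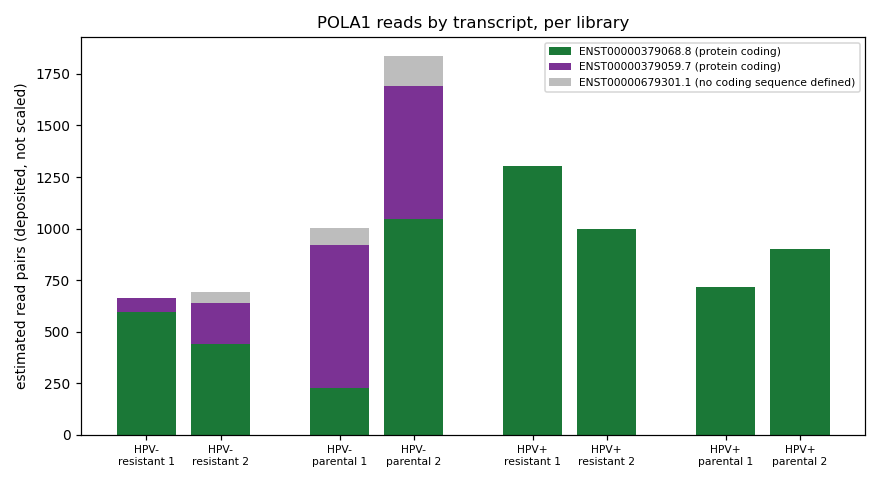
Estimated read pairs (vertical axis, as deposited and not scaled for depth) of the POLA1 transcripts that hold at least 3% of the gene's reads, stacked for each of the 8 libraries. The transcript ENST00000379059 (purple) holds 693 and 645 read pairs in HPV- parental cells, 67.3 and 198 in the HPV- clone and 0 in the HPV+ line.

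The other 6 polymerase and primase genes were POLA2, POLD1, POLD3, POLE, POLE2 and PRIM2. Their log2 fold changes were -0.09 to -0.54 in the HPV- clone and -0.28 to 0.32 in the HPV+ clone, and none passed the adjusted p in edgeR. POLD1, the catalytic subunit of the lagging-strand polymerase, had 275 and 159 CPM in the HPV- parental libraries, and this ratio of 1.73 was the largest between parental libraries of that line.

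Of the 5 genes for nucleotide supply 0 were called in either clone, with 3 lower and 0 higher at an unadjusted p under 0.05 in the HPV- clone, 2 lower and 0 higher in the HPV+ clone, and 0 by DESeq2 in both. DUT, which removes dUTP, had 129 and 177 CPM in the HPV- clone and 299 and 286 CPM in HPV- parental cells (log2 fold change -0.94, SE 0.17, adjusted p = 0.003). DUT in the HPV+ line had 177 and 168 CPM in the clone and 199 and 222 CPM in parental cells (log2 fold change -0.29, adjusted p = 0.25). TYMS, which makes dTMP, had 107 and 136 CPM in the HPV- clone and 134 and 148 CPM in HPV- parental cells, with overlap. The HPV+ levels of TYMS were 214 and 207 CPM in the clone and 299 and 336 CPM in parental cells (log2 fold change -0.60, SE 0.15, adjusted p = 0.024). TK1, the salvage kinase for thymidine, passed the adjusted p alone in both lines, with log2 fold changes of -0.75 in the HPV- clone and -0.70 in the HPV+ clone. RRM2, the regulated subunit of ribonucleotide reductase, had log2 fold changes of -0.69 (adjusted p = 0.024) in the HPV- clone and -0.05 in the HPV+ clone.

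RPA coats single-stranded DNA and has 3 subunits. RPA3 had 61.6 and 65.3 CPM in the HPV- clone and 132 and 80.8 CPM in HPV- parental cells (log2 fold change -0.74, SE 0.22, adjusted p = 0.029). RPA3 in the HPV+ line had 66.3 and 52.7 CPM in the clone and 113 and 107 CPM in parental cells (log2 fold change -0.89, SE 0.22, adjusted p = 0.019), the most negative value of the members in that comparison. The RPA3 groups did not overlap in either line. The 20 nearest tested genes to RPA3 on chromosome 7 had a median log2 fold change of -0.64 in the HPV+ clone, where 6 were more negative than RPA3. In the HPV- clone their median was 0.13. The part of a shared genomic change in the RPA3 result was not tested. RPA2 passed the adjusted p alone in the HPV+ clone (log2 fold change -0.48, adjusted p = 0.036), and RPA1 had log2 fold changes of -0.12 and -0.08 in the HPV- and HPV+ clones.

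FEN1 and LIG1 trim and seal the fragments of the lagging strand. FEN1 had 89.8 and 112 CPM in the HPV- clone and 105 and 126 CPM in HPV- parental cells, and 81.8 and 72.8 CPM in the HPV+ clone and 77.0 and 89.2 CPM in HPV+ parental cells. LIG1 had 76.3 and 101 CPM in the HPV- clone and 117 and 86.4 CPM in HPV- parental cells, and 122 and 155 CPM in the HPV+ clone and 188 and 183 CPM in HPV+ parental cells. Only LIG1 in the HPV+ line had groups that did not overlap, and its log2 fold change of -0.42 did not pass the test (adjusted p = 0.16).

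In the chromatin assembly and fork group 4 of 5 members were lower by the adjusted p alone in the HPV- clone, or 80%, against 14.1% of all genes. With the minimum fold 0 were called by edgeR or DESeq2. CHAF1B, a subunit of the complex that places histones behind the fork, had 28.0 and 28.3 CPM in the HPV- clone and 44.8 and 43.6 CPM in HPV- parental cells (log2 fold change -0.65, adjusted p = 0.0065). CHAF1B in the HPV+ line had 65.9 and 60.9 CPM in the clone and 49.2 and 43.99 CPM in parental cells (log2 fold change 0.44, SE 0.13, adjusted p = 0.043). The difference between the lines was 1.09 (SE 0.19, adjusted p = 0.0038). CHAF1B was the only member past the adjusted p in both clones with opposite signs. Its 20 nearest tested genes on chromosome 21 had a median log2 fold change of 0.68 in the HPV+ clone, above that of CHAF1B. Of these neighbours, 5 were more negative than CHAF1B there. In the HPV- clone the neighbour median was 0.25. The part of a shared genomic change in the CHAF1B result was not tested.

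CLSPN encodes claspin, which links the fork to the checkpoint kinase CHEK1. It had 26.1 and 28.3 CPM in the HPV- clone and 43.3 and 55.6 CPM in HPV- parental cells (log2 fold change -0.86, adjusted p = 0.003), and 83.7 and 81.8 CPM in the HPV+ clone and 68.7 and 73.5 CPM in HPV+ parental cells (log2 fold change 0.22, adjusted p = 0.33). The difference between the lines was 1.08 (SE 0.21, adjusted p = 0.007), and was not called without HPV- parental replicate 2 (0.95) or with transcript length as an offset (0.95, adjusted p = 0.066). UHRF1, which recruits the maintenance DNA methyltransferase at the fork, had 80.0 and 102 CPM in the HPV- clone and 162 and 175 CPM in HPV- parental cells (log2 fold change -0.89, SE 0.15, adjusted p = 0.0028). UHRF1 in the HPV+ line had 189 and 170 CPM in the clone and 250 and 235 CPM in parental cells (log2 fold change -0.44, adjusted p = 0.073). Both UHRF1 comparisons were without overlap.

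The members called in the HPV- clone lay on 6 chromosomes (10, 22, 8, X, 20 and 19). Their neighbours were examined next, as the median log2 fold change of the 10 tested genes on each side. In the HPV- clone this median was -0.22 around MCM10 (chr10:13161558-13211110), -0.35 around CDC45 (chr22:19479457-19520612), 0.02 around POLA1 (chrX:24693873-24996986), -0.06 around E2F1 (chr20:33675477-33686385) and -0.01 around CCNE1 (chr19:29811991-29824312), in GENCODE release 44 coordinates. Around the 2 members on chromosome 8 it was -0.62 for DSCC1 and -0.41 for CCNE2. Of the 20 neighbours, 3 were more negative than the gene itself for each of DSCC1 and CCNE2, while 0 were for CDC45. Over the 48 members the neighbour medians ran from -0.62 to 0.32 with a median of 0.06. Around CHAF1B and CLSPN, called only in the difference between the lines, the neighbour medians were 0.25 and -0.27 in the HPV- clone. In the HPV+ clone they were 0.68 and -0.05. The part of a shared genomic change in any of these results, with the 2 on chromosome 8, was not tested.

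Between the parental lines the members were not shifted as a group, with a median log2 fold change of -0.05 for HPV+ over HPV- and -0.00 over all genes. TYMS and RPA2 were higher in HPV+ parental cells, 2 of 48 or 4.17%, against 17.7% of all genes. ORC6, RFC2, POLA1 and POLE2 were lower, 4 of 48 or 8.33%, against 19.3% of all genes, and the count was 6 without HPV- parental replicate 1. RPA2 had 156 and 151 CPM in HPV+ parental cells and 53.5 and 44.9 CPM in HPV- parental cells (log2 fold change 1.64, SE 0.14, adjusted p = 4.7e-06). POLE2, an accessory subunit of the leading-strand polymerase, had 12.5 and 13.7 CPM in HPV+ parental cells and 38.6 and 39.1 CPM in HPV- parental cells (log2 fold change -1.57, SE 0.15, adjusted p = 1.2e-05). ORC6 had the largest difference, -2.42 (SE 0.14, adjusted p = 3.3e-07), and the retained-intron transcript made up most of it. That transcript had 44.2 and 38.0 TPM in HPV+ parental cells and 290 and 322 TPM in HPV- parental cells.

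Other genes of the same processes were compared from further lists. Among 29 other replication genes 5 fell in the HPV- clone, 17.2%, against 5.22% of all genes. In the HPV+ clone 2 fell, 6.9%, which is near the 4.6% of all genes. TIMELESS and TIPIN, partners that steady the fork, had log2 fold changes of -1.31 and -1.24 in the HPV- clone and -0.29 and 0.31 in the HPV+ clone, and PRIM1, the catalytic primase subunit, had -1.33 and 0.06. Their differences between the lines were called at 1.03, 1.55 and 1.40. CHTF8, a part of the alternative clamp loader, was called in the other direction at -1.16 (adjusted p = 0.0041), with log2 fold changes of 0.54 in the HPV- clone and -0.62 in the HPV+ clone, and was named after its value was seen. The list thus had 3 positive and 1 negative differences called, 10.3% and 3.45%, against 5.17% and 6.57% of all genes. TIMELESS and PRIM1 lie close together on chromosome 12, where the median of 20 neighbours in the HPV- clone was -0.80 and -0.50. The part of a shared genomic change in these results was not tested.

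Among 26 tested regulators of E2F and RB, 6 fell in the HPV- clone, or 23.1%, against 5.22% of all genes. In the HPV+ clone 1, CCND1, fell, or 3.85%, which is near the 4.6% of all genes. CDK2, the partner of cyclin E, had 62.8 and 64.0 CPM in the HPV- clone and 174 and 165 CPM in HPV- parental cells (log2 fold change -1.42, adjusted p = 0.00012). CDK2 lies close to TIMELESS and PRIM1 on chromosome 12, with a neighbour median of -0.76. The part of a shared genomic change in this result was not tested. CDC25A, a phosphatase that activates CDK2, had a log2 fold change of -1.44 in the HPV- clone and -0.10 in the HPV+ clone. CDKN1A, the CDK inhibitor p21, had -1.57 in the HPV- clone and 0.14 in the HPV+ clone. In the HPV- clone the RNA of this inhibitor was thus lower, as was that of CDK2 and CDC25A. What these changes do to CDK activity was not tested.

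Of 8 replication checkpoint genes 0 were called in either clone by edgeR or DESeq2, with 2 lower and 0 higher at an unadjusted p under 0.05 in each. CHEK1 had a log2 fold change of -0.63 (adjusted p = 0.016) in the HPV- clone and 0.17 in the HPV+ clone. RAD9A had -0.15 in the HPV- clone and -0.62 (adjusted p = 0.042) in the HPV+ clone, and ATR had -0.42 and -0.32 with no adjusted p under 0.05.

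The mitosis genes, which are transcribed later in the cycle, were mostly lower in both clones. Of 22 genes 2 fell in the HPV- clone, or 9.09%, against 5.22% of all genes, and 5 fell in the HPV+ clone, or 22.7%, against 4.6%. By the adjusted p alone 11 were lower in the HPV- clone, or 50%, against 14.1%, and 12 in the HPV+ clone, or 54.5%, against 10.5%. Their median log2 fold change was -0.52 in the HPV- clone, near the -0.54 of the replication genes, and -0.50 in the HPV+ clone. Between the lines a difference was called for 0 of 22 genes by edgeR and DESeq2, with 3 negative and 0 positive at an unadjusted p under 0.05. BIRC5 had log2 fold changes of -0.91 in the HPV- clone and -1.14 in the HPV+ clone, AURKA had -0.71 and -1.16, and CDC20 had -1.30 and -1.16. In the HPV+ clone the mitosis genes therefore had a lower median than the replication genes, and the difference between the 2 lists was not tested.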

How the data were processed

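RNA of 8 libraries was measured by polyA RNA-sequencing. The authors quantified reads with Salmon against GRCh38 and deposited estimated counts, TPM and effective lengths (another measure, used for the length offset only) per transcript. Salmon's version and its index were not given in the sources used here. Of 187432 transcripts, 172550 (92.1%) matched GENCODE release 44 by ID without version, and estimated counts were summed per gene and rounded. The 14882 unmatched transcripts, 4.32 to 5.13% of the counts, were left out. Of the 48 measured members, 40 had all their GENCODE transcripts in the deposited tables and 8 had part of them.

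Genes were tested with edgeR 4.0.16 (R 4.3.3, limma 3.58.1): all 8 libraries, 1 coefficient per group, TMM factors, the default filter and robust quasi-likelihood tests, with p-values adjusted by Benjamini-Hochberg over 15221 genes. A call required a log2 fold change past 1 in either direction with the adjusted p below 0.05. CPM used TMM library sizes. Marker CPM used all matched counts. The code was tested on simulated data.

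The members and lists were chosen with earlier results of these data known. Values in every library are given for members called in either clone or in the difference between lines and for the member with the smallest p of each role in either resistance comparison. Other lists name at most 3 genes by the same p. ORC6, POLD1 and the members that passed the adjusted p alone were added after their values were seen. Alternatives were DESeq2 1.42.0, the 4 libraries of a comparison, RLE and upper-quartile factors, a length offset, other filters (none, or 5 CPM in 2 libraries), no minimum fold, glmTreat against 0.5, a replicate block, leaving out each library, and same transcript versions only. Equal replicate numbers did not pair the libraries. No library was a copy of another, since replicate counts differed beyond sampling noise. Depth per library limits genes with few counts, and no interval for shares was needed.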

Additional observations from a re-analysis of the deposited data

Results flagged for a closer look

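The change in the HPV+ line minus the change in the HPV- line was called for 6 members by edgeR's test of the difference itself. On the log2 scale it was 1.54 for POLA1, 1.54 for CDC45, 1.47 for MCM10, 1.13 for DSCC1, 1.09 for CHAF1B and 1.08 for CLSPN. In MCM10, POLA1 and CHAF1B the clone libraries lay below both parental libraries in the HPV- line and above them in the HPV+ line, and the same was seen in CLSPN. In CDC45 the clone libraries were below the parental ones in both lines, and in DSCC1 they overlapped with them in the HPV+ line only. Groups of 2 libraries were too small for a search for outlying samples.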

How the results depend on the processing

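The count of 7 members lower in the HPV- clone stayed at 7 under DESeq2, RLE factors, the 4 libraries of the comparison, both filters, glmTreat, the replicate block and same transcript versions, with the same genes. The length offset also gave 7, of which 6 were shared: MCM10 was lost (-0.94) and CHAF1B gained. It was 4 with upper-quartile factors, which lost E2F1, MCM10 and POLA1, and 26 with no minimum fold. Leaving out a library gave 3 to 12: 3 without HPV- resistant replicate 1 (CDC45, DSCC1 and CCNE2 kept) and 12 without HPV- resistant replicate 2. CDC45, DSCC1 and CCNE2 were called under every alternative run in the HPV- comparison. The HPV+ clone had 6 lower and 1 higher with no minimum fold, and leaving out a library gave 0 to 1 lower, with RPA3 called without HPV+ resistant replicate 1. The parental comparison had 20 lower and 11 higher with no minimum fold, against 30% and 28% of all genes. Its 4 lower were 6 under DESeq2, RLE factors, the length offset, the 5 CPM filter and without HPV- parental replicate 1. The difference between lines had 5 or 6 positive under all refits, losing CLSPN with the length offset (0.95) and without HPV- parental replicate 2, and 9 with no minimum fold. The medians moved by less than the spread between libraries, and that of the parental comparison changed sign to 0.03 with upper-quartile factors. Over 13 single-gene calls, 214 of 228 refits kept the call and 14 lost it, with no change of sign. The cause of these changes was not tested. Upper-quartile factors also moved the split of all called genes in the HPV- clone to 1101 higher and 666 lower, against 923 and 795. The replicate block, with 7 lower in the HPV- clone, changed no call among the members named there, and the correlation of equally numbered libraries was -0.07, -0.02 and 0.14.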
